A study of Mus musculus with 16 samples.

Results

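The lungs of mice with allergic airways disease (OVA/OVA) were compared with the lungs of mice that inhaled the same allergen without having been sensitised to it (PBS/OVA). The 6 OVA/OVA arrays of mice without steroid and the 4 PBS/OVA arrays were taken by their labels, 10 of the 16 arrays in the series. All mice were BALB/c of 8 to 12 weeks, kept free of specific pathogens. OVA/OVA mice were injected intraperitoneally with 50 μg of OVA, chicken ovalbumin, in 1 mg of Alhydrogel, an aluminium adjuvant, on day 0, and PBS/OVA mice received 1 mg of Alhydrogel without OVA. Both groups were then given 10 μg of OVA into the nose on days 12, 13, 14 and 15, and whole lungs were taken 24 hours after the last dose. The groups therefore share the strain, the adjuvant, the inhaled protein and the sampling time, and differ in whether OVA was part of the injection. The fit also took in 4 arrays of OVA/OVA mice given dexamethasone, a steroid, intraperitoneally at 3 mg/kg from day 11 (OVA/OVA DEX). It also used 2 arrays of mice with neither sensitisation nor inhaled OVA (PBS/PBS). These arrays entered the estimate of the spread, the detection filter and the choice of miRNAs for scaling. The labels number all 16 arrays as replicates without naming the animal behind each, so the p-values measure the spread between arrays.

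MiRNAs are short RNAs that guide Argonaute proteins to messenger RNAs, mostly through the seed at bases 2 to 8, and lower the level or translation of their targets. Several are concentrated in single lineages: miR-223 in granulocytes and monocytes, miR-142 in all blood cells except mature red cells, miR-451 and miR-144 in red cells, miR-126 in endothelium, the miR-200 family in epithelium. In sensitised mice an inhaled allergen brings eosinophils, lymphocytes and other leukocytes into the airways, whereas animals without sensitisation respond to it weakly.

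The arrays carried probes for 611 mouse miRNAs. Between 251 and 277 were detected on a PBS/OVA array and between 240 and 301 on an OVA/OVA array. The OVA/OVA arrays were not equally bright. The signal summed over miRNAs was 707731 on replicate 1, within the PBS/OVA range of 493063 to 718149, and 733489 on replicate 4, above it. On replicates 2, 3, 5 and 6 it was 251350 to 407898. All levels below are therefore log2 of signals scaled to each array's 75th percentile over 206 miRNAs detected on all 16 arrays, with values under a floor of 0.86 set to it. 266 miRNAs were tested with limma, and "passed" means a Benjamini-Hochberg adjusted p under 0.05. A miRNA was called where it passed and also differed by at least 2-fold.

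The sequences of the called miRNAs are given first, since the seed decides which messages each one can pair with. RefSeq (GRCm38.p6) held a mature sequence for 217 of the 266 names, 81.6%, and for 12 of the 14 called. Capitals mark the seed. The higher miRNAs read
miR-155-5p: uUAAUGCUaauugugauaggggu
miR-362-5p: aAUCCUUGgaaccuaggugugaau
miR-223-3p: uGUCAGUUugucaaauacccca
miR-130b-3p: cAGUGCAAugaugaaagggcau
miR-18a-5p: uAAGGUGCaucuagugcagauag
miR-142-3p: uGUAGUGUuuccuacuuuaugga
miR-877-5p: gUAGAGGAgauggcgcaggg
miR-680: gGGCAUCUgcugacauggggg
and 2 of the lower ones read
miR-551b-3p: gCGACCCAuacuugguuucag
miR-31-3p: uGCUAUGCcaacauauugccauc
The 12 sequences carried 12 different seeds, so the called miRNAs were not one seed family. On GRCm38.p6, miR-155-5p lies at chr16:84714143-84714165 (plus strand) within the Mir155hg host gene, miR-223-3p at chrX:96242884-96242905 (plus), miR-142-3p at chr11:87756903-87756925 (plus) and miR-18a-5p at chr14:115043867-115043889 (plus). MiR-362-5p lies at chrX:7242019-7242042 (minus) within Clcn5, miR-130b-3p at chr16:17124071-17124092 (minus), miR-551b-3p at chr3:29416879-29416899 (plus) within Egfem1 and miR-31-3p at chr4:88910577-88910599 (minus). The names miR-378-3p and miR-151-3p were also called.

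Of the 266 miRNAs, 14 were called (5.26%), 9 of them higher in OVA/OVA (3.38%) and 5 lower (1.88%). Without the fold requirement 39 passed as higher (14.7%) and 45 as lower (16.9%), and the median difference over all 266 was -0.04. The 9 called higher differed by 2.04-fold to 3.66-fold, and in 7 of them all 6 OVA/OVA arrays lay above all 4 PBS/OVA arrays. Among the 5 called lower, miR-551b-3p and miR-31-3p differed by 2.22-fold and 2.20-fold, the size of the other 3 depended on the floor, and in 3 of the 5 the groups were apart. Of the called miRNAs, 1 of the higher and 4 of the lower were not detected on every array of the group in which they were low, so the detection filter did not hold for them in both groups. Over all miRNAs tested, the groups did not overlap for 29 that were above in OVA/OVA (10.9%) and 24 that were below (9.02%).

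**Figure D1:**
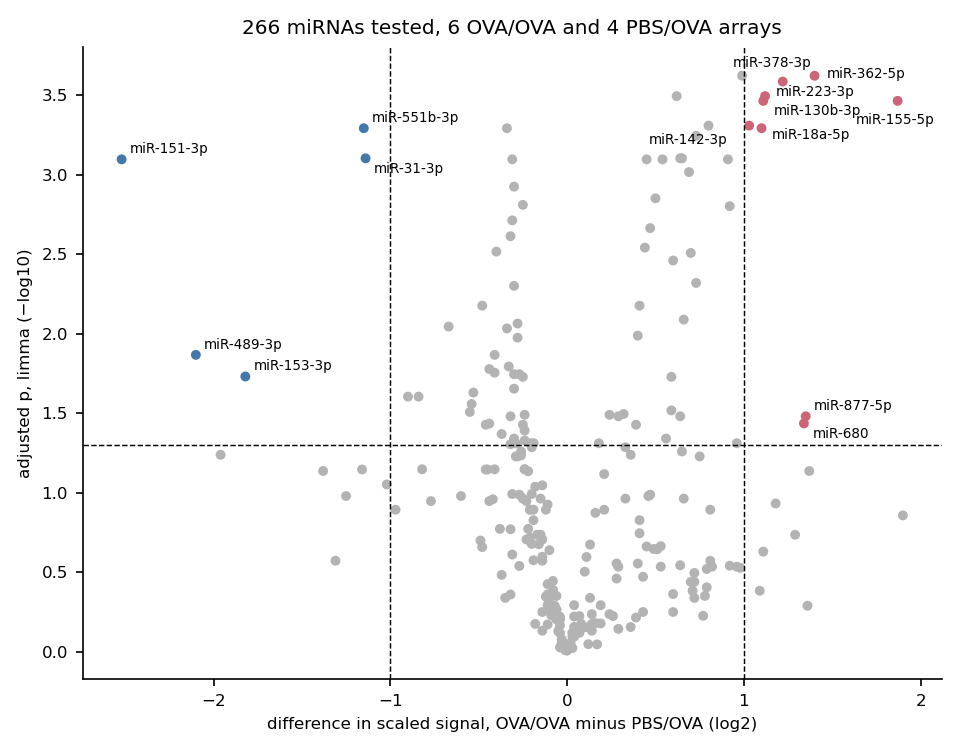
Each of the 266 points is a miRNA, with the log2 difference in scaled signal, OVA/OVA minus PBS/OVA, on the horizontal axis and −log10 of the limma adjusted p on the vertical axis. The 14 called miRNAs are named. The 9 higher ones reach a difference of 1.87 (miR-155-5p), the 5 lower ones reach -2.52 (miR-151-3p), and most points lie near 0.

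Most of the listed miRNAs of immune cells were higher in allergic lung. The list was chosen with earlier results of these data known, so its counts are not independent of them. MiR-155-5p, which is induced on activation of lymphocytes and macrophages, measured 6.64, 7.11, 6.55 and 7.34 on the 4 PBS/OVA arrays. On the 6 OVA/OVA arrays its lowest level was 8.15, the median 8.88 and the highest 9.33. The groups were separated by a gap of 0.81, and this was also seen before scaling, with intensities of 115 to 153 in PBS/OVA and 174 to 649 in OVA/OVA. The difference was 1.87 ± 0.27 (log2, SE; 3.66-fold), limma adjusted p = 0.000344. Mice that had neither sensitisation nor inhaled OVA (PBS/PBS, 2 arrays) gave 6.53, just under the range of the PBS/OVA arrays, and 7.05, within it. In whole lung, a larger number of cells of a type and more of a miRNA per cell cannot be told apart, here and in every result that follows.

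MiR-223-3p, a miRNA of granulocytes and monocytes, stood at 11.61, 11.47, 11.73 and 11.61 in PBS/OVA. In OVA/OVA its lowest level was 12.36, the median 12.74 and the highest 13.08. All 6 allergic arrays were thus above the 4 others, by 1.12 ± 0.16 on average (2.17-fold, limma adjusted p = 0.000321). This separation was seen in the scaled values only. Before scaling the intensities were 2664 to 4213 in PBS/OVA and 2871 to 9350 in OVA/OVA, and the dim OVA/OVA arrays overlapped the other group.

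MiR-142-3p, found throughout the blood lineages, measured 14.14, 13.63, 14.08 and 14.28 in PBS/OVA and 14.69, 15.20 and 15.27 as lowest, median and highest in OVA/OVA. The groups did not overlap and the difference of 1.03 ± 0.16 (limma adjusted p = 0.000492) was just over 2-fold. It came to 0.90 without PBS/OVA replicate 2, the lowest array, and to just under 2-fold (0.99 to 1.00) without OVA/OVA replicate 2, 3 or 6. The other arm of the hairpin, miR-142-5p, rose by 0.66 (limma adjusted p = 0.00816).

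MiR-21-5p, a miRNA of activated leukocytes and injured epithelium, stood just outside the fold requirement. Its PBS/OVA levels were 15.07, 15.86, 15.21 and 15.41, and its OVA/OVA levels ran from 15.89 over a median of 16.42 to 16.59. The groups were apart by a narrow margin, set by PBS/OVA replicate 2. The difference was 0.92 ± 0.18 (limma adjusted p = 0.00158), and 1.08 without that array or 1.01 without OVA/OVA replicate 4.

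Over all miRNAs tested, 14.7% passed as higher and 16.9% as lower. Of the 9 haematopoietic and immune cell miRNAs listed, 8 passed as higher and 0 as lower, with a median difference of 0.66 against -0.04 over all miRNAs. The exception was miR-146a-5p, a feedback inhibitor of NF-kB signalling, at -0.29 (limma adjusted p = 0.0592). The summed level of the list was 15.91 to 16.29 in PBS/OVA and 16.63 to 17.23 in OVA/OVA, with no overlap. Its median stayed above 0 under every scaling tried, between 0.07 and 0.71, while the number that passed as higher varied from 0 without scaling, over 3 with control spots (and 1 as lower), 4 with the percentile over all miRNAs and 5 with quantile normalization, to 8 with normexp. Without PBS/OVA replicate 2 the counts were 7 higher and 1 lower, the latter being miR-146a-5p at -0.39 (limma adjusted p = 0.0123).

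**Figure D2:**
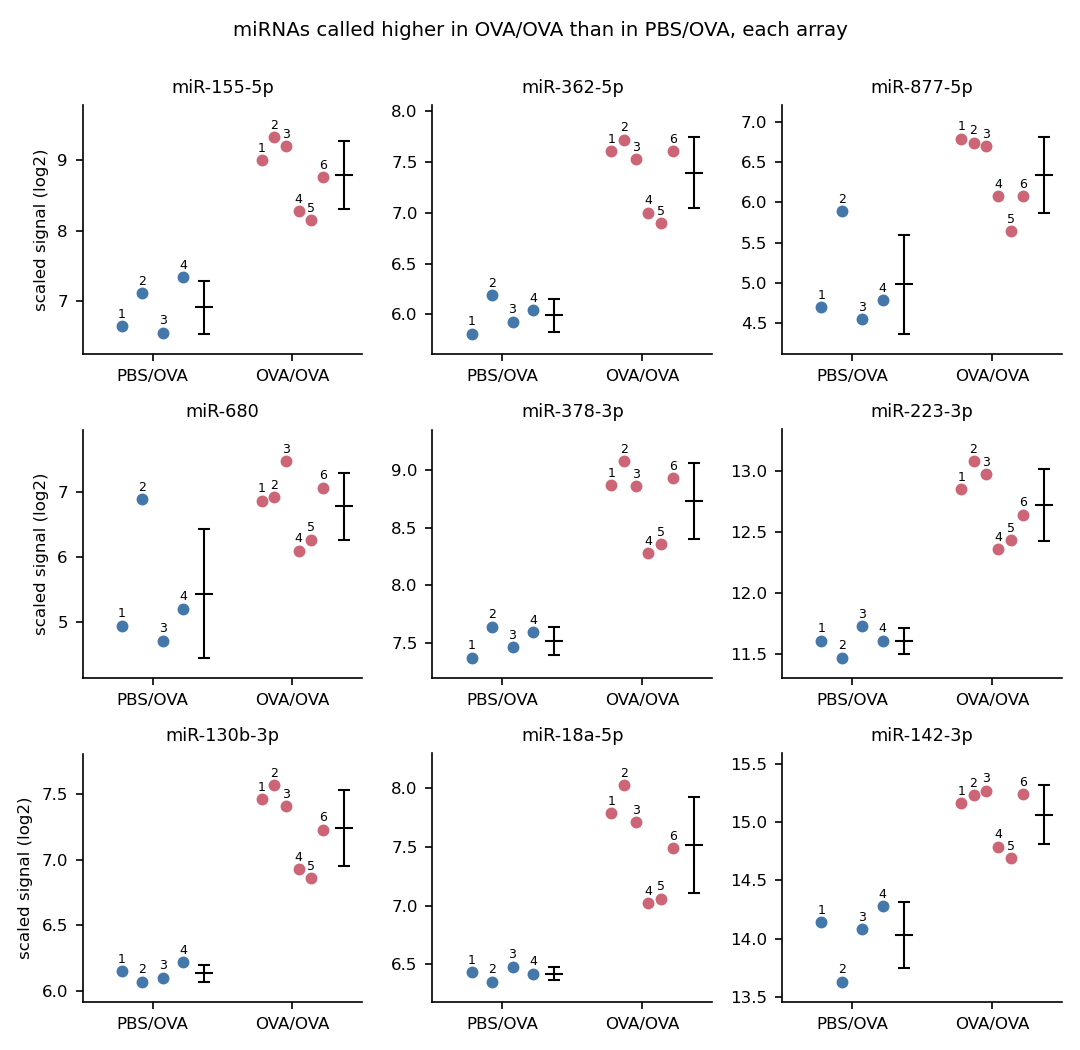
Scaled log2 signal of the 9 miRNAs called higher, 1 panel each, for the 4 PBS/OVA and 6 OVA/OVA arrays. Points are arrays, numbered by replicate, and bars are group means with SD. In 7 panels the groups are apart, and in the panels of miR-680 and miR-877-5p PBS/OVA replicate 2 lies among the OVA/OVA arrays.

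The called miRNAs outside the immune list included members of polycistrons, in which several miRNAs are cut from 1 primary transcript. MiR-362-5p belongs to a cluster on the X chromosome within Clcn5, together with miR-188, miR-500, miR-501, miR-532 and miR-660. Its PBS/OVA levels were 5.81, 6.19, 5.93 and 6.04, and its OVA/OVA levels had a lowest value of 6.90, a median of 7.57 and a highest of 7.72. The gap between groups was wider than the whole PBS/OVA range, and the difference was 1.40 ± 0.17 (2.64-fold, limma adjusted p = 0.000239). Of its 4 probes 3 were higher in OVA/OVA, and 1 was at the floor on all 10 arrays.

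The neighbours of miR-362-5p moved the same way by smaller amounts. MiR-532-5p rose by 0.91 (limma adjusted p = 0.000802), miR-500-3p by 0.65 (0.00079) and miR-362-3p by 0.40 (0.0103), the last of which turned negative where arrays were left unscaled or scaled to control spots. In all, 4 of the 6 tested members of the cluster passed as higher and 0 as lower, against 14.7% and 16.9% over all miRNAs. The median was 0.73 and was positive under every scaling. The number that passed was 0 without scaling, 1 with control spots or the percentile over all miRNAs, 2 with quantile normalization and 4 with normexp. MiR-188-5p did not pass at 0.81 ± 0.55 (limma adjusted p = 0.268). It measured 8.29 on PBS/OVA replicate 2 and at most 5.23 on the other PBS/OVA arrays, and without replicate 2 the difference was 1.60 (limma adjusted p = 0.00227).

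MiR-18a-5p comes from the miR-17 to miR-92a cluster, a MYC target that promotes proliferation and lymphocyte expansion. It measured 6.43, 6.35, 6.48 and 6.42 in PBS/OVA, and 7.02, 7.60 and 8.03 as lowest, median and highest in OVA/OVA. The PBS/OVA arrays were nearly equal, the OVA/OVA arrays spread over about 1 log2 unit above them, and the difference was 1.10 ± 0.17 (limma adjusted p = 0.000511), or just under 2-fold without OVA/OVA replicate 2. Within the cluster 5 of the 8 tested members passed as higher and 0 as lower, against 14.7% and 16.9% over all miRNAs. MiR-19a-3p differed by 0.64 (limma adjusted p = 0.00079), miR-20a-5p by 0.50 (0.00141) and miR-92a-3p by 0.41 (0.00667), while miR-19b-3p did not pass at 0.21 (0.0764). MiR-20a-5p, miR-92a-3p and miR-19b-3p turned negative without scaling and with control spots.
The median of the cluster was 0.46, and it turned to -0.06 without scaling and to -0.14 with control spot scaling. The number that passed as higher was 0 without scaling, 1 with control spots or the percentile over all miRNAs, and 5 with quantile normalization or normexp. In the paralogous miR-106b cluster 0 of 3 members passed, with a median of 0.13 that was -0.38 without scaling.

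MiR-130b-3p shares its seed with 3 other miRNAs tested, and their 3′ parts differ:
miR-130b-3p: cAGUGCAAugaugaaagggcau
miR-130a-3p: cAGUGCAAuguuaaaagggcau
miR-301a-3p: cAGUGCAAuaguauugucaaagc
miR-721: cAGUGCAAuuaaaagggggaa
MiR-130b-3p measured 6.15, 6.07, 6.10 and 6.22 in PBS/OVA. Its OVA/OVA levels were 6.86 at the lowest, 7.32 at the median and 7.57 at the highest, all above those of PBS/OVA. The difference was 1.11 ± 0.16 (2.16-fold, limma adjusted p = 0.000344). The other members differed in value. MiR-130a-3p, known from endothelium, was at -0.24 (limma adjusted p = 0.047), which passed in 1 of 10 fits with an array left out, and miR-301a-3p stood at 0.02 (0.883). MiR-721, named here after its values were seen, was at 1.29 ± 0.73 (limma adjusted p = 0.184), with 8.10 on PBS/OVA replicate 2 against a mean of 4.62 on the other PBS/OVA arrays. Without that array it was at 2.16 (limma adjusted p = 0.0105).

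MiR-378-3p, processed from an intron of the PGC-1β gene Ppargc1b, measured 7.37, 7.64, 7.46 and 7.59 in PBS/OVA. Its lowest, median and highest levels in OVA/OVA were 8.28, 8.87 and 9.08. The groups were apart, with a difference of 1.22 ± 0.16 (2.32-fold, limma adjusted p = 0.00026). Its partner arm miR-378-5p rose by 0.73 (limma adjusted p = 0.00057).

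The remaining 2 called higher, miR-877-5p and miR-680, rested on less. MiR-877-5p, a mirtron of Abcf1 at chr17:35960795-35960814 (minus strand), gave 4.70, 5.89, 4.55 and 4.79 in PBS/OVA and 5.64, 6.39 and 6.79 as lowest, median and highest in OVA/OVA. It was detected on 1 of the 4 PBS/OVA arrays and on all 6 OVA/OVA arrays, and entered the test only through OVA/OVA, where it was higher. The groups overlapped through PBS/OVA replicate 2. The difference was 1.35 ± 0.44 (limma adjusted p = 0.0331), and 1.66 (0.0123) without that array.
MiR-680 gave 4.94, 6.88, 4.71 and 5.20 in PBS/OVA and 6.09, 6.88 and 7.47 in OVA/OVA. Again replicate 2 alone reached the OVA/OVA levels, and the difference of 1.34 ± 0.44 (limma adjusted p = 0.0367) became 1.82 (0.00313) without it. Left out 1 array at a time, miR-680 remained called in 3 of 10 cases (with OVA/OVA replicate 4, OVA/OVA replicate 5 or PBS/OVA replicate 2 removed) and miR-877-5p in 4 of 10 (with any of these or OVA/OVA replicate 6 removed).

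**Figure D3:**
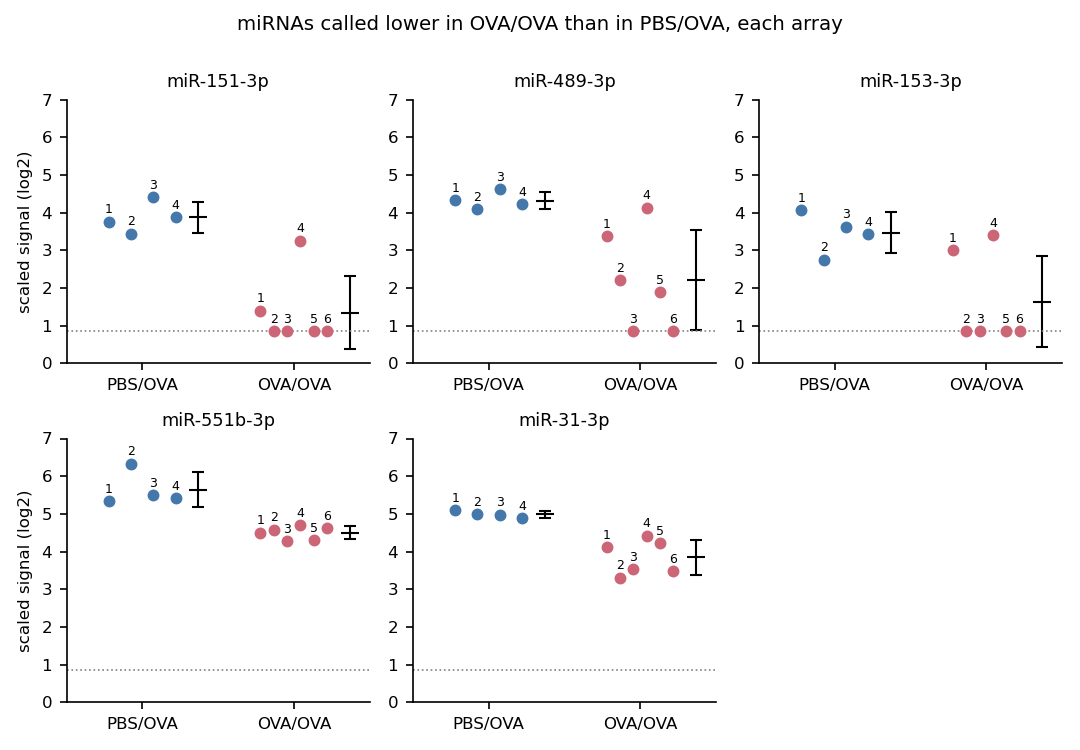
Scaled log2 signal of the 5 miRNAs called lower, 1 panel each, for the 4 PBS/OVA and 6 OVA/OVA arrays. Points are arrays, numbered by replicate, bars are group means with SD, and the dotted line is the floor of 0.86. MiR-151-3p, miR-551b-3p and miR-31-3p do not overlap between groups, and OVA/OVA arrays of miR-151-3p, miR-489-3p and miR-153-3p lie on the floor.

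Of the 5 miRNAs called lower, 4 went undetected on some of the OVA/OVA arrays. MiR-551b-3p was detected on all 10 arrays, with 5.33, 6.33, 5.50 and 5.41 in PBS/OVA and 4.28, 4.54 and 4.71 as lowest, median and highest in OVA/OVA. No OVA/OVA array reached the PBS/OVA range, and the difference was -1.15 ± 0.18 (2.22-fold, limma adjusted p = 0.000511). Without PBS/OVA replicate 2, its highest array, the difference was -0.92 (limma adjusted p = 0.000871).

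MiR-31-3p, the passenger arm of the epithelial and T cell miRNA miR-31, measured 5.10, 4.99, 4.98 and 4.88 in PBS/OVA and 3.31, 3.83 and 4.42 in OVA/OVA. The groups were apart by -1.14 ± 0.19 (limma adjusted p = 0.00079). It was detected on all 4 PBS/OVA arrays and on 2 of the 6 OVA/OVA arrays, and of these groups it met the detection filter only in PBS/OVA, where it was higher.

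MiR-151-3p stood at 3.76, 3.44, 4.41 and 3.88 in PBS/OVA against 1.40 and 3.26 on OVA/OVA replicates 1 and 4 and the floor of 0.86 on the other 4. The fitted difference of -2.52 ± 0.44 (limma adjusted p = 0.000802) is set by the floor, being -0.94 with a floor 4 times higher and -3.67 with one 4 times lower. Before scaling its intensity was 10.2 to 26.4 in PBS/OVA and -7.17 to 12.5 in OVA/OVA. Of its 4 probes only 1 was above the floor on all 10 arrays, and the probes differed by -0.65 to 0.00.

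MiR-489-3p gave 4.33, 4.10, 4.62 and 4.22 in PBS/OVA and 0.86, 2.04 and 4.13 in OVA/OVA, with a difference of -2.10 ± 0.56 (limma adjusted p = 0.0136). MiR-153-3p gave 4.06, 2.75, 3.63 and 3.42 against 0.86, 0.86 and 3.40, with a difference of -1.82 ± 0.52 (limma adjusted p = 0.0186). In both OVA/OVA replicate 4 reached into the PBS/OVA range, and each was detected on 2 of 6 OVA/OVA arrays. Their sizes also followed the floor, with -1.16 and -2.76 for miR-489-3p and -0.52 and -3.11 for miR-153-3p at a floor 4 times higher and 4 times lower. MiR-153-3p did not pass without PBS/OVA replicate 1 (-1.62, limma adjusted p = 0.062) or 3 (-1.77, 0.0558). Only in PBS/PBS was it detected on every array, so it entered the test through those 2 arrays alone.

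Some of the lower calls were smaller when array brightness was taken into account. OVA/OVA replicate 4, 1 of the 2 bright arrays, was also among the 2 lowest of its group for all 9 miRNAs called higher. Brightness and that array can therefore not be told apart in a fit limited to the bright arrays. When OVA/OVA was reduced to replicates 1 and 4, the arrays as bright as PBS/OVA, miR-489-3p was at -0.56 (limma adjusted p = 0.338), miR-153-3p at -0.26 (0.664) and miR-151-3p at -1.54 (0.0706), whereas miR-551b-3p was at -1.04 (0.0273) and miR-31-3p at -0.72 (0.00895). Of the higher calls, miR-155-5p was at 1.73 (0.0117), miR-362-5p at 1.31, miR-378-3p and miR-130b-3p at 1.06, miR-223-3p at 1.00, miR-18a-5p at 0.99 and miR-142-3p at 0.95, all of which passed, while miR-877-5p (1.45, 0.171) and miR-680 (1.04, 0.323) did not. With the normexp background correction, all 5 lower calls turned positive, at 0.14 to 0.37, while the median of all miRNAs was 0.30. With array brightness as a covariate the lower calls stood at -1.93 for miR-151-3p, -1.14 for miR-551b-3p, -1.10 for miR-489-3p, -0.95 for miR-153-3p and -0.90 for miR-31-3p, all with a limma adjusted p under 0.05 and the last 2 under 2-fold.

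**Figure D4:**
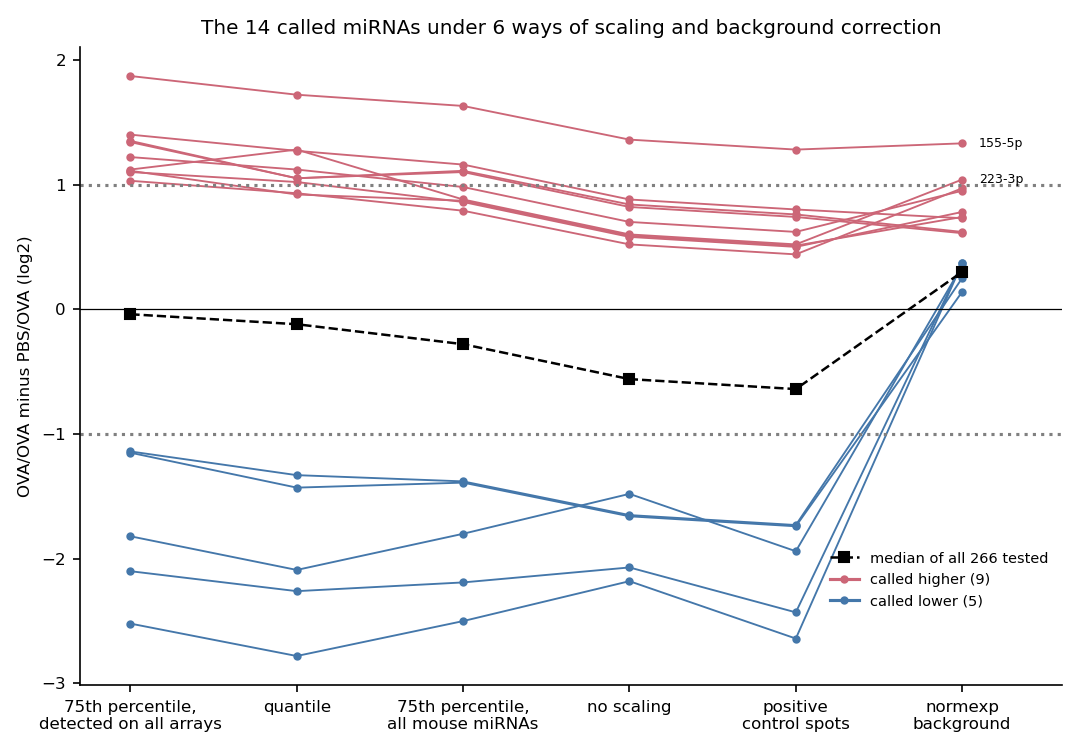
Log2 difference, OVA/OVA minus PBS/OVA, of the 14 called miRNAs under 6 ways of scaling and background correction. Lines join a miRNA's values, black squares are the median of all 266, and dotted lines mark 2-fold. The 9 higher miRNAs stay above 0 under all 6, the 5 lower ones turn to 0.14 to 0.37 with normexp, and the median runs from -0.64 with control spots to 0.30.

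The median of all miRNAs shifted with the scaling, and the cause of the shift was not tested. Without scaling the median of all miRNAs was -0.56, and with control spot scaling -0.64. Without scaling miR-155-5p differed by 1.36 (limma adjusted p = 0.0579) and the other 8 higher miRNAs by 0.52 to 0.88. Relative to the median of all miRNAs these were 1.91 and 1.07 to 1.44. With normexp, where the median was 0.30, the distance from it was 1.02 for miR-155-5p and 0.74 for miR-223-3p. It was 0.67 for miR-142-3p, 0.65 for miR-378-3p, 0.48 for miR-18a-5p, 0.44 for miR-130b-3p and 0.42 for miR-362-5p.

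A further 30 miRNAs passed as higher at under 2-fold, with differences of 0.18 to 0.99, and 40 passed as lower, with differences of -0.90 to -0.19. MiR-7a-5p was nearest to the 2-fold mark, at 6.62, 6.62, 6.72 and 6.87 in PBS/OVA and 7.37, 7.77 and 7.94 as lowest, median and highest in OVA/OVA. It did not overlap between groups, and the difference was 0.99 ± 0.12 (limma adjusted p = 0.000239), reaching 1.04 to 1.06 when replicate 4 of either group or OVA/OVA replicate 5 was removed. MiR-340-5p (0.80, limma adjusted p = 0.000492) and miR-342-5p (0.73, 0.0048) also rose without overlap.

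Among those that fell without overlap, the muscle miRNAs miR-133b-3p and miR-133a-3p were lower by the most. MiR-133b-3p measured 8.64, 9.02, 8.72 and 8.46 in PBS/OVA and 7.07, 7.89 and 8.39 as lowest, median and highest in OVA/OVA, a difference of -0.90 ± 0.27 (limma adjusted p = 0.0249). MiR-133a-3p followed at -0.84 (0.0249). Each passed in 7 of 10 fits with an array left out. With array brightness as a covariate neither passed, at -0.63 (limma adjusted p = 0.113) for miR-133b-3p and -0.59 (0.113) for miR-133a-3p. The OVA/OVA arrays differed widely among themselves, with 8.22 to 8.39 on replicates 1, 4 and 5 and 7.07 to 7.57 on replicates 2, 3 and 6.

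MiR-450b-3p, from an X-linked cluster, fell by 0.67 (limma adjusted p = 0.00903), and miR-125a-5p, a homologue of lin-4, fell by 0.41 (0.0176). MiR-183-5p, of the sensory and epithelial miR-183 cluster, fell by 0.48 (0.00667). Its neighbour miR-96-5p was at -0.30 (0.0457) and passed in 3 of 10 fits with an array left out. Of the 3 tested members of that cluster 2 passed as lower, against 16.9% over all miRNAs, and the median was -0.48. With normexp the median was 0.19 and 0 passed, and 0 passed without scaling or with only the bright OVA/OVA arrays. With array brightness as a covariate 1 passed, and with control spots all 3 did (158 of all 266 miRNAs). Without PBS/OVA replicate 2, 1 of the 3 passed as lower, against 58 of all 266 miRNAs.

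The epithelial and smooth muscle lists had medians near that of all miRNAs. In lung epithelium 1 of the 5 tested members passed as higher and 0 as lower, against 14.7% and 16.9% over all miRNAs. The median was -0.04, or 0.10 with quantile normalization, -0.55 without scaling and -0.63 with control spots. With control spots all 5 passed as lower, as did 158 of the 266 miRNAs tested. The summed level of the list was 13.22 to 13.31 in PBS/OVA and 13.24 to 13.34 in OVA/OVA. MiR-200c-3p was at 0.24 (limma adjusted p = 0.0324) and passed in 5 of 10 fits with an array left out, and it was negative where arrays were unscaled, scaled to control spots or scaled to the percentile over all miRNAs, and miR-200b-3p was at -0.04 (0.622). In ciliated epithelium 0 of 6 passed, with a median of -0.07 (0.32 with normexp, and -0.67 with control spots, where 3 passed as lower), and miR-449a-5p stood at 0.45 ± 0.27 (limma adjusted p = 0.218). In smooth muscle 0 of 3 passed, at a median of -0.05 (0.27 with normexp, and -0.65 with control spots, where all 3 passed as lower).

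Both arms of miR-126, which comes from the endothelial gene Egfl7, passed as lower by a narrow margin, against 16.9% over all miRNAs. MiR-126-3p was at -0.24 (limma adjusted p = 0.0407) and passed in 3 of 10 fits with an array left out, and miR-126-5p was at -0.54 (0.0277) and passed in 5 of 10. All 4 fibroblast miRNAs tested were lower, with a median of -0.25, and 2 passed. These were miR-199a-3p at -0.25 (0.0187) and miR-199b-5p at -0.30 (0.018), each of which passed in 9 of 10 such fits. In both lists 0 members passed with array brightness as a covariate, only the bright OVA/OVA arrays or the percentile over all miRNAs. With normexp 2 of each list passed as lower (12 of all 266 miRNAs), and with control spots all tested members did (158 of 266).

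In striated muscle 3 of 4 tested members passed as lower, against 16.9% over all miRNAs. These were the 2 miR-133 miRNAs and miR-208b-3p (-0.53, limma adjusted p = 0.0235), while miR-1a-3p was at -0.82 ± 0.33 (0.0713). MiR-208b-3p passed in 7 of 10 fits with an array left out and turned to 0.20 with normexp. With control spots all 4 passed as lower, as did 158 of the 266 miRNAs tested. With normexp, array brightness as a covariate or only the bright OVA/OVA arrays 0 passed, at medians of -0.30, -0.56 and -0.32 against -0.83. The summed level of the list was 11.01 to 11.54 in PBS/OVA and 9.46 to 11.19 in OVA/OVA, and without PBS/OVA replicate 2 only 1 member passed as lower (miR-133b-3p was then at -0.80, limma adjusted p = 0.0515). The red cell miRNAs gave 3 negative differences, miR-451 at -0.42 (0.11), miR-144-3p at -0.38 (0.169) and miR-3107-5p, the name on the array for the miR-486-5p sequence, at -0.45 (0.0715), of which 0 passed. Their summed level was 15.65 to 16.51 in PBS/OVA and 15.28 to 16.20 in OVA/OVA. Without PBS/OVA replicate 2, the lowest of its group, all 3 passed as lower with a median of -0.62, against 58 of all 266 miRNAs. The part that blood content and muscle in the samples had in the other differences was not tested. MiR-122-5p of liver was detected on 1 of 4 PBS/OVA and 3 of 6 OVA/OVA arrays, and the 2 brain miRNAs listed were detected on 0 arrays.

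**Figure D5:**
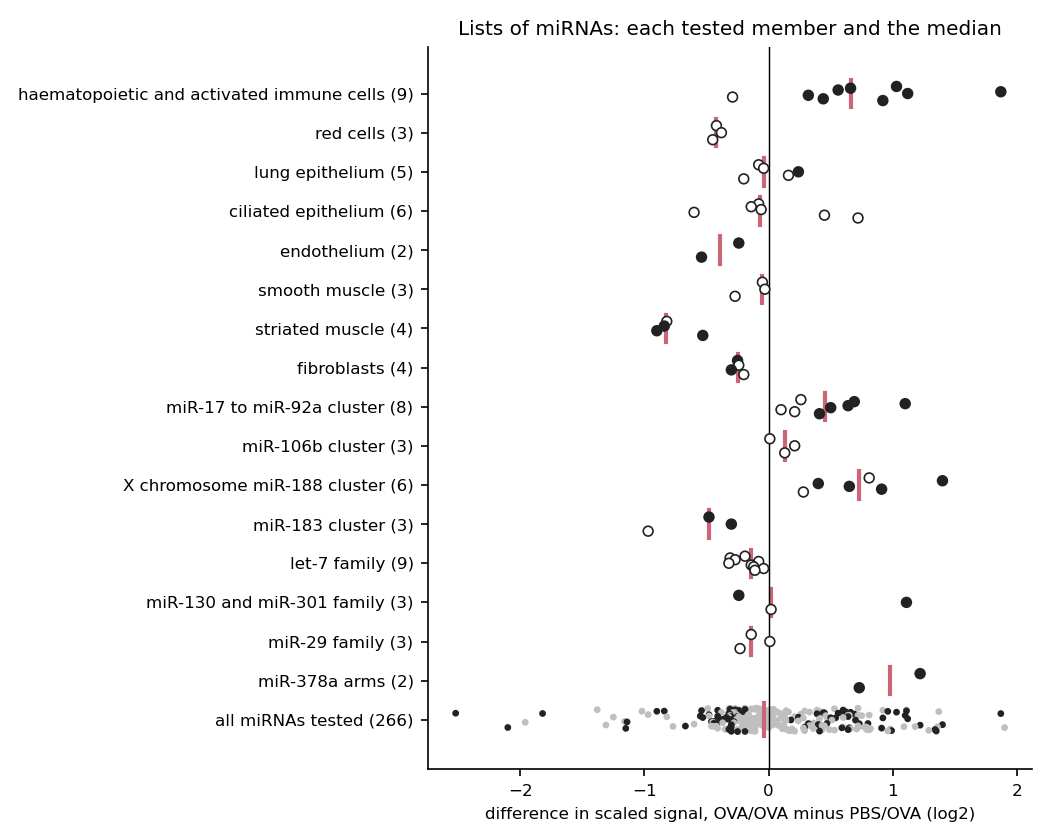
Log2 difference, OVA/OVA minus PBS/OVA, of each tested member of 16 lists of miRNAs, with all 266 tested at the bottom. Filled points passed (adjusted p under 0.05), open or grey points did not, bars are medians, and the number of tested members stands in brackets. The immune list has its median at 0.66 and the X chromosome miR-188 cluster at 0.73, while striated muscle lies at -0.83 and epithelium at -0.04.

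The let-7 family, among the highest signals of most tissues and a brake on growth genes, had 9 tested members with differences of -0.32 to -0.04. All 9 were negative and 0 passed, against 2 as lower with quantile normalization and all 9 with control spots. Over all 266 miRNAs 45 passed as lower, or 40 with quantile normalization and 158 with control spots. Let-7b-5p was at -0.31 (limma adjusted p = 0.102) and let-7f-5p at -0.14 (0.197). The miR-29 family, which represses collagens, gave a median of -0.14 over 3 members, of which 0 passed. Without PBS/OVA replicate 2, 2 of them passed as lower, as did 58 of all 266 miRNAs. MiR-221-3p was at -0.07 (0.545).

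The 6 OVA/OVA arrays were not alike in how far they stood from PBS/OVA. For all 9 miRNAs called higher, replicates 4 and 5 were the 2 lowest of the group. The median distance of these 9 from the PBS/OVA mean was 0.76 on replicate 4 and 0.82 on replicate 5, and 1.37, 1.57, 1.37 and 1.21 on replicates 1, 2, 3 and 6. Replicate 2 gave the highest level for 6 of the 9. The summed signal of replicate 4 was 733489 and that of replicate 5 was 371463.

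The arrays lay on 2 slides that each held both groups. Within slide 1 (PBS/OVA replicates 2 and 3, OVA/OVA replicates 1 and 2) miR-155-5p differed by 2.33 (limma adjusted p = 0.0091), and within slide 2 (PBS/OVA replicates 1 and 4, OVA/OVA replicates 3 to 6) by 1.60 (0.0954). The other immune miRNAs kept their sign in both, with miR-223-3p at 1.36 and 0.99 and miR-142-3p at 1.34 and 0.79. So did miR-362-5p at 1.60 and 1.33, miR-378-3p at 1.43 and 1.13, miR-130b-3p at 1.43 and 0.92 and miR-18a-5p at 1.50 and 0.90. The lower miRNAs miR-151-3p (-2.79 and -2.36), miR-551b-3p (-1.38 and -0.89) and miR-31-3p (-1.27 and -1.07) did likewise. MiR-877-5p (1.54 and 1.38), miR-680 (1.09 and 1.65), miR-489-3p (-1.57 and -2.34) and miR-153-3p (-1.26 and -2.24) also kept their sign, the last 3 being further from 0 on slide 2. On slide 2 alone limma called 0 miRNAs and 83 had an unadjusted p under 0.05, and the difference between slides was not tested.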

How the data were processed

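Per the file headers, the authors scanned 1-colour Agilent mouse miRNA arrays (Release 12.0) and processed them with Agilent Feature Extraction 10.7.3.1, and deposited background-subtracted intensity values with detection flags. A deposited table of processed log2 values matched the array files for 156 miRNAs within 0.15 on at least 4 arrays. Its column medians ran from -7.3 to -5.7 over the arrays compared, and how it was centred is not given in the sources used here, so it served only as an alternative.

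Spots marked as outliers were left out, spots were averaged per probe and probes summed per miRNA. Each array was scaled to its 75th percentile, taken over 206 miRNAs with a detection flag on all 16 arrays, floored at 1.82 (log2 0.86) and taken to log2. The 266 miRNAs that were detected throughout 1 group or more were fitted over 16 arrays (OVA/OVA 6, PBS/OVA 4, OVA/OVA DEX 4 and PBS/PBS 2) with limma 3.58.1 in R 4.3.3 and Benjamini-Hochberg adjustment. OVA/OVA DEX and PBS/PBS entered the estimate of the spread, the detection filter and the choice of miRNAs for scaling. The fit was tested on simulated data. Called means an adjusted p under 0.05 and at least 2-fold. No spot was saturated, and the number of arrays limits the precision. Tables and figures were made in Python 3.11.15 (pandas 2.3.3, scipy 1.17.1, numpy 2.4.6, matplotlib 3.10.9).

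Named were all called miRNAs, up to 5 in each direction that passed at under 2-fold without overlap between groups, up to 4 of each list by mean signal, and the miRNAs the study measured by qPCR. The members and lists were chosen with earlier results of these data known. Alternatives covered other scalings, normexp (offset 50, on median spot signals), the floor, the detection filter, slides, a replicate block, array brightness as a covariate, an exact Mann-Whitney test, which the study used, and each array left out.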

Additional observations from a re-analysis of the deposited data

Results flagged for a closer look

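Within the 2 groups, 5 of 110 sets of replicate levels held an array far from the rest, by Dixon's criterion, and chance flags about 1 in 20 groups. PBS/OVA replicate 2 was the highest of its group for miR-1224-5p, at 12.95 with the nearest array at 9.48, and for miR-188-5p, at 8.29 with the nearest at 5.23. MiR-1224-5p, named after its values were seen, differed by 0.39 (limma adjusted p = 0.61) with that array and by 1.30 (0.00186) without it. OVA/OVA replicate 4 was the highest for miR-151-3p, at 3.26 with the nearest at 1.40. PBS/OVA replicate 1 was the lowest for miR-200b-3p, at 11.38 with the nearest at 11.46, a range too narrow to matter to the comparison. OVA/OVA replicate 5 was the lowest for miR-342-5p, at 4.74 with the nearest at 5.22, and was still above all PBS/OVA arrays.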

How the results depend on the processing

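Over 55 named miRNAs, 1786 values were computed under alternatives: 1583 kept their direction and their side of the call (adjusted p and 2-fold), 117 were no longer called, 38 were newly called and 48 changed sign. The 14 calls (9 higher, 5 lower, 84 miRNAs past adjusted p alone, 39 higher and 45 lower) changed as follows, and the cause was not tested unless given. Scaling to the percentile over all mouse miRNAs gave 9 calls (2 higher, 22.2%, against 64.3%) and 21 past adjusted p. No scaling gave 2 calls (0 higher, 2 lower) and 2 past adjusted p, with 90 at an unadjusted p under 0.05, and quantile normalization gave 5 higher (45.5% of the calls). Control spots gave 33 calls (1 higher, 3.03%, and 32 lower) and 166 past adjusted p, and the dmr control spots alone, chosen after seeing the data, 1 higher (4.76%) and 20 lower. Normexp gave 2 calls (2 higher, 0 lower) and 38 past adjusted p. Agilent's total gene signal gave 3 lower. The deposited values gave 7 calls, 0 lower and 53 past adjusted p, over fewer miRNAs. Testing only miRNAs detected on all arrays gave 8 calls (1 lower), and a floor 4 times higher gave 3 lower. Slide 1 alone gave 26 past adjusted p, and slide 2 alone 0 calls, 0 higher, 0 lower and 0 past adjusted p. Array brightness as a covariate gave 3 lower and 53 past adjusted p. Only the bright OVA/OVA arrays, chosen after seeing the data, gave 3 lower and 40 past adjusted p. The exact Mann-Whitney test gave 3 lower and 53 past adjusted p, the smallest p possible being 0.00952, and an adjusted p under 0.01 gave 3 lower. With 1 array left out, the calls ranged from 10 to 25, the higher ones from 5 to 18, the lower ones from 4 to 12 and those past adjusted p from 48 to 103. Without PBS/OVA replicate 2 there were 24 calls (18 higher), of which 12 were among the 14, without OVA/OVA replicate 4 there were 25 calls (12 lower), without OVA/OVA replicate 2 there were 5 higher, and without PBS/OVA replicate 3 there were 48 past adjusted p.

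The replicate block gave 3 lower calls. The deviations of same-numbered arrays were mixed (correlations 0.41, 0.31, -0.18 and -0.03, and 2 of 4 correlated best with their own number), so the numbers were not taken as a pairing, and the block turned miR-301a-3p to -0.01.

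Signs changed for these miRNAs, given without scaling, with control spots and with the dmr control spots: miR-1224-5p (-0.12, -0.20, -0.13), miR-19b-3p (-0.30, -0.38, -0.31), miR-200c-3p (-0.28, -0.36, -0.28), miR-20a-5p (-0.01, -0.09, -0.02), miR-301a-3p (-0.50, -0.58, -0.50), miR-362-3p (-0.12, -0.20, -0.12), miR-449a-5p (-0.07, -0.15, -0.07) and miR-92a-3p (-0.11, -0.19, -0.11). The percentile over all miRNAs gave -0.03 for miR-19b-3p, -0.00285 for miR-200c-3p and -0.22 for miR-301a-3p. Normexp gave 0.37 for miR-151-3p, 0.35 for miR-153-3p, 0.19 for miR-183-5p, 0.20 for miR-208b-3p, 0.25 for miR-31-3p, 0.33 for miR-450b-3p, 0.37 for miR-489-3p and 0.14 for miR-551b-3p. Quantile normalization gave 0.10 for miR-200b-3p and -0.02 for miR-301a-3p. Slide 1 gave -0.30 for miR-1224-5p, 0.01 for miR-221-3p and -0.04 for miR-301a-3p, and slide 2 gave 0.02 for miR-200b-3p. MiR-301a-3p, which lies near 0, was also at -0.01 with the deposited values and with brightness as a covariate, at -0.00146 with the bright arrays, and from -0.01 to 0.07 with 1 array left out, being -0.0021 without PBS/OVA replicate 4.

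Differences near background are the least certain: 4 of the 5 lower calls were undetected on some OVA/OVA arrays, and 3 of the 5 hold OVA/OVA arrays at the floor.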

Other observations

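Beside the mouse miRNAs the arrays carried probes for 39 viral miRNAs, of which 3 or 4 were detected on each of the 10 arrays and 3 on each PBS/PBS array.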
